A study of Mus musculus with 3 samples.

Results

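Integrin subunit transcripts were followed through the sorted liver cells of Ai14 reporter mice, which carry a Tomato gene behind a stop cassette that Cre removes (LSL-Tomato). The 10 genes, the 7 alpha subunits Itga1, Itga2, Itga4, Itgae, Itgal, Itgam and Itgax and the 3 beta subunits Itgb1, Itgb2 and Itgb7, were chosen by symbol. All 10 were found among the 31053 genes of the deposited table of unique molecular identifiers (UMIs), the tags that mark single captured mRNA molecules. The 3 treatments were lipid nanoparticles named 20a-LNP, lipid nanoparticles named 20mix-LNP, each carrying Cre mRNA at 0.3 mg/kg, and PBS as the vehicle, with 1 library each. Liver non-parenchymal cells were taken 3 h after injection, digested out with collagenases and hyaluronidase, stained, sorted by flow cytometry and captured with a 3′ single-cell kit. The labels name neither the surface markers of the sort nor the age or number of the mice, so an integrin may have been among the sort markers.

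The 3 libraries were deposited as 1 merged table whose barcodes end in suffix 1, 2 or 3, and no label or header ties a suffix to a treatment. No treatment comparison was therefore made and no test was run. Values are given for the pooled cells and for each library, in the order of suffixes 1, 2 and 3. The table held 24111183 UMIs in 4638 barcodes, of which 3230 had at least 200 genes and at most 20% mitochondrial UMIs (761, 1119 and 1350 per library, with a median of 5690.5 UMIs). A barcode entered a cell class when its marker UMIs numbered at least 3, came from at least 2 marker genes and were at least 4 times those of any other marker list. Cells of the joint NK or ILC1 gate were then split by a sub-gate of 2 further lists. The ILC1 list was Cxcr6, Cd200r1, Tnfsf10, Il7r and Tmem176b, and the NK list was Eomes, Klra4, Klra8, Klra9, S1pr5 and Cma1. A cell took the name of a list with at least 2 summed UMIs and at least 4 times the UMIs of the other, with no minimum number of genes. No integrin was a marker in any gate. The classes were 902 sinusoidal endothelial cells, 374 plasmacytoid dendritic cells (pDC), 344 type 1 innate lymphoid cells (ILC1), 202 Kupffer cells, 98 nonclassical monocytes, 80 type 1 conventional dendritic cells (cDC1), 72 natural killer (NK) cells, 64 neutrophils and 59 T cells. Smaller gates held 41 type 2 conventional dendritic cells (cDC2) and 30 B cells, given as values, with ratios to cDC2 only where the pair had been planned. The cDC2 gate held only 8, 26 and 7 cells per library. The 12 classical monocytes and 3 platelets were too few to describe, no basophil or stellate cell was gated, 132 cells were NK or ILC1 cells that the sub-gate left undecided, and 817 cells (25.3%) entered no class. Check markers that no gate used summed to 12699 CPM for endothelium in the endothelial class and 15619 CPM for Kupffer cells in the Kupffer class, where CPM is the UMIs of a gene or list divided by all UMIs of the class, times 1000000. The check lists did not set all classes apart. The cDC2 list, which shares Flt3 and Cst3 with the cDC1 list, summed to 4939 CPM in cDC2 and to 18254 CPM in cDC1, and cDC2 carried the cDC1 list at 4899 CPM, against 20684 CPM in cDC1. These lists do not separate cDC2 from cDC1, and the part of such transcripts in the ratios between them was not tested. ILC1 carried the 4 T cell check genes at 1716 CPM. The T class also carried the 4 NK check genes at 4546 CPM summed, against 2525 CPM for the 4 T cell check genes, and the part of these transcripts in its integrin values was not tested. The sizes of the classes depend on the sort, and 3 barcode sequences occurred in more than 1 library; without the 6 kept barcodes that carry them the 10 planned or added ratios each stayed within its counting interval.

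Integrins are paired cell surface receptors, 1 alpha and 1 beta subunit each, that hold cells to matrix or to other cells and are switched on from inside by talin and kindlin binding to the beta tail. The beta 1 subunit pairs with alpha 1 or alpha 2 to bind collagen and with alpha 4 to bind fibronectin and VCAM-1. The beta 2 subunit, found on leukocytes, pairs with alpha L (LFA-1, a receptor for ICAM-1), alpha M (Mac-1, a complement and ICAM-1 receptor) or alpha X. The beta 7 subunit pairs with alpha 4 to bind MAdCAM-1 and with alpha E to bind E-cadherin. In mouse liver, alpha 1 (CD49a) and alpha 2 (CD49b) are the usual surface markers that separate ILC1 from NK cells, and alpha E (CD103) marks cDC1. Only transcripts were measured here, and neither protein nor pairing at the surface.

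Promoters were read for the 2 neighbouring pairs of genes, because their members went separate ways in these cells. Itga1 and Itga2 lie 20995 bases apart on the minus strand of chromosome 13, and Itgam and Itgax lie 11055 bases apart on the plus strand of chromosome 7. RefSeq promoter sequences (build GRCm38.p6, 250 bases before to 50 bases after the gene's start, read along the gene) were matched for 7 of the 10 genes, and not for Itgae, Itgal and Itgb2. The Itga1 window is chr13:115101915-115102214 and the Itga2 window is chr13:114932051-114932350. The Itgam window is chr7:128062390-128062689 and the Itgax window is chr7:128129300-128129599. Capitals mark matches, on either strand, to the PU.1 and ETS core GAGGAA or to the RUNX core TGTGGT.
Itga1: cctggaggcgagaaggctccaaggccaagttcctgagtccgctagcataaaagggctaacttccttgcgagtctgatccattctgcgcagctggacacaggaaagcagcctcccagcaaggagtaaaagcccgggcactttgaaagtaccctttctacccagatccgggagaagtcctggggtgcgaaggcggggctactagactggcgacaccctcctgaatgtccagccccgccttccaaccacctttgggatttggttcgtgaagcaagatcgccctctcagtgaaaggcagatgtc
Itga2: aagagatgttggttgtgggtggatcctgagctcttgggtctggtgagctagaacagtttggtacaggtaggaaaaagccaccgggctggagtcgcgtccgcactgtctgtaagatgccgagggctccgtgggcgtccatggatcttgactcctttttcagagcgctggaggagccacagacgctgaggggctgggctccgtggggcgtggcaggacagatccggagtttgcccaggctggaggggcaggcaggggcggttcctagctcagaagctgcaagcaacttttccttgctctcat
Itgam: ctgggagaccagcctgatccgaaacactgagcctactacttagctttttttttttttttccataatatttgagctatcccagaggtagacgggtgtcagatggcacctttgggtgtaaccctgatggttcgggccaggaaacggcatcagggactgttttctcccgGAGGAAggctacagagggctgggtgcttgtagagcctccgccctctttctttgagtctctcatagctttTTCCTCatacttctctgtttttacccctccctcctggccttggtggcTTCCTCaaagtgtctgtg
Itgax: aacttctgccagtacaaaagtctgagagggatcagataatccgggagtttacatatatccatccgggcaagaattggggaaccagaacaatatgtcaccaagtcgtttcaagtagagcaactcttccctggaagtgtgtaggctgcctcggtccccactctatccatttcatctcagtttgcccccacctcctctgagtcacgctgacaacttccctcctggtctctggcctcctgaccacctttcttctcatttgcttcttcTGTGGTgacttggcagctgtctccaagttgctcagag
The Itgam window held the PU.1 and ETS core at 3 places, starting 84 and 15 bases before the start and 32 bases after it, and the Itgax window held the RUNX core once, 13 bases after the start. The Itga1 and Itga2 windows held neither of these letters nor the T-box core GGTGTGA. Among all 27025 promoter windows, 28.3% held GAGGAA, 16.9% held TGTGGT and 3.96% held GGTGTGA, and 3, 2 and 1 of the 7 matched integrin windows held them, with no match overlapping another. A match is a description of the letters and not a binding site.

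In annotation of build GRCm38 the other members lie on chromosomes 2 (Itga4, 79255426 to 79333123), 11 (Itgae, 73090583 to 73147446), 7 (Itgal, 127296260 to 127335138), 8 (Itgb1, 128685654 to 128733200), 10 (Itgb2, 77530252 to 77565708) and 15 (Itgb7, 102215995 to 102231944). The whole genes span 114953096 to 115101964 for Itga1, 114833081 to 114932100 for Itga2, 128062640 to 128118491 for Itgam and 128129547 to 128150657 for Itgax. Gm49368 lies on the strand of Itgam and shares exons with it, so reads could be split between them. It had 73 UMIs in all kept cells and reached 57.5 CPM in neutrophils. Gm49395 shares exons with Itga1 and had 6 UMIs, Pelo lies within Itga1 and had 46 UMIs, and Cerkl overlaps Itga4 on the other strand and had 39 UMIs.

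**Figure D1:**
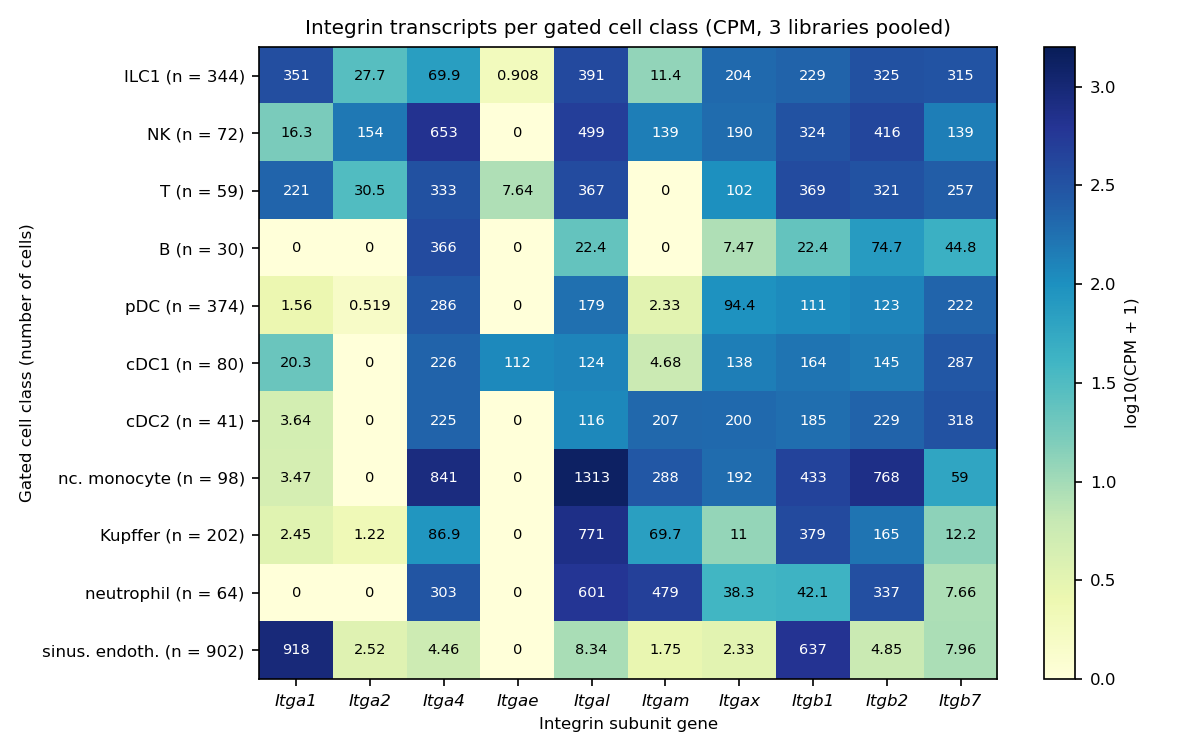
CPM of each of the 10 integrin genes (columns) in each gated cell class (rows, with the number of cells), pooled over the 3 libraries, on a colour scale of log10(CPM + 1). Itga1 peaks at 918 CPM in sinusoidal endothelial cells, Itgal at 1313 CPM in nonclassical monocytes, and Itgae is near 0 outside cDC1.

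The classes differed in the levels of the subunits, although some, such as ILC1 and T cells, had the same members at 50 CPM or more. Because the 3′ kit counts 1 end of each molecule, CPM can be set side by side between genes without a length correction, although capture may differ between genes. Sinusoidal endothelial cells carried Itga1 and Itgb1 with the other 8 genes below 10 CPM. Nonclassical monocytes had the highest levels of Itga4, Itgal and Itgb2 of the 11 classes, and neutrophils had the highest level of Itgam. NK cells led for Itga2 and cDC1 for Itgae. Itgb7 lay between 222 and 318 CPM in all 3 dendritic classes, ILC1 and T cells. The highest Itgax level was 204 CPM in ILC1, which did not differ beyond counting error from cDC2 (200 CPM), nonclassical monocytes (192 CPM) or NK cells (190 CPM) taken in that order.

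The collagen receptor subunit Itga1 was read first across the classes. Its level in sinusoidal endothelial cells was 885, 949 and 924 CPM in the 3 libraries (918 CPM pooled, 95% counting interval 892 to 944), and in ILC1 it was 303, 367 and 367 CPM (351 CPM pooled). All 3 endothelial values lay above all 3 ILC1 values. Endothelial cells had 2.61 times the ILC1 level (2.42 to 2.82), and ILC1 had 1.59 times the 221 CPM of T cells (1.27 to 2.005), in that order in every library. Below them, cDC1 held 20.3 CPM from 26 UMIs, 21 of which came from suffix 2, and NK cells held 16.3 CPM from 9 UMIs. The remaining classes were at 3.64 CPM or less, with no UMI in neutrophils or B cells. These intervals cover counting error alone and not the spread between animals.

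Itga1 and Itga2 separated ILC1 from NK cells in opposite directions. ILC1 had Itga1 at 303, 367 and 367 CPM in the 3 libraries, against 18.8, 2.81 and 66.0 CPM in NK cells, without overlap. The pooled ratio of ILC1 to NK cells was 21.6 (11.3 to 47.4), with 16.2, 131 and 5.55 in the single libraries. It rested on 9 NK UMIs of Itga1, of which suffix 3 held 6, so that it was 52.8 without suffix 3, 8.43 without suffix 2 and 12.4 after every cell was thinned to 2000 UMIs. Itga2, the other collagen-binding alpha subunit, had 216, 146 and 110 CPM in NK cells, against 26.2, 29.3 and 27.0 CPM in ILC1. Again no library overlapped, and NK cells had 5.55 times the ILC1 level (3.95 to 7.84; 8.24, 4.98 and 4.08 per library). T cells had 30.5 CPM of Itga2 from 12 UMIs, which did not differ from ILC1 beyond counting error (ratio 1.10, 0.540 to 2.07). Sinusoidal endothelial cells had 2.52 CPM of Itga2, and no UMI of it was found in cDC1, cDC2, nonclassical monocytes, neutrophils or B cells.

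Single cells showed the same division. Among ILC1, 217 of 344 cells (63.1%, exact binomial interval 57.7 to 68.2) had a UMI of Itga1 but none of Itga2, 40 (11.6%) had both, 11 (3.2%) had Itga2 without Itga1 and 76 (22.1%) had neither. Among NK cells, 41 of 72 (56.9%, 44.7 to 68.6) had Itga2 without Itga1, 6 (8.33%) had Itga1 without Itga2, none had both and 25 had neither. The 132 undecided cells lay near ILC1, with Itga1 without Itga2 in 62.1% and Itga2 without Itga1 in 1.52%. In pDC, set beside them as a class of another lineage, 1.34% of cells had a UMI of Itga1 and 0.267% a UMI of Itga2, at a median depth of 11432.5 UMIs, against 6494.5 UMIs in ILC1 and 6991 UMIs in NK cells. Among T cells 25 of 59 had Itga1 without Itga2, and 7 had both.

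**Figure D2:**
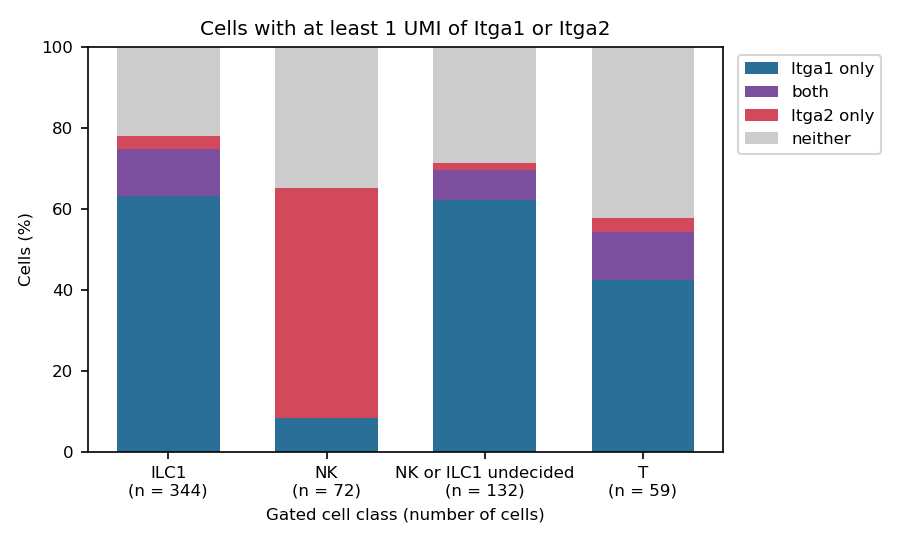
Share of cells (%) with at least 1 UMI of Itga1 only, of both genes, of Itga2 only or of neither, in ILC1, NK cells, undecided NK or ILC1 cells and T cells. ILC1 are mostly Itga1 only (63.1%) and NK cells mostly Itga2 only (56.9%).

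Itgb1, the shared partner of alpha 1, alpha 2 and alpha 4, was found in every class. It had 675, 543 and 646 CPM in sinusoidal endothelial cells, against 443, 314 and 378 CPM in Kupffer cells. Endothelial values lay above Kupffer values throughout, with a ratio of 1.68 (1.49 to 1.89; 1.53, 1.73 and 1.71 per library). Nonclassical monocytes had 433 CPM, Kupffer cells 379 CPM, T cells 369 CPM and NK cells 324 CPM, and none of these neighbours differed beyond counting error. The ends of this order had separate intervals, 381 to 491 CPM in nonclassical monocytes and 278 to 375 CPM in NK cells. Neutrophils had 42.1 CPM from 11 UMIs and B cells 22.4 CPM from 3 UMIs. Itga1 UMIs outnumbered Itgb1 UMIs in ILC1 (1.53 times, 1.37 to 1.72) and in endothelial cells (1.44 times, 1.38 to 1.51), and stood at 0.0503 times Itgb1 in NK cells.

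Within the endothelium, cells were split by pericentral and periportal marker lists, a division added after the values had been seen. Itga1 was at 929, 918 and 904 CPM in 524 periportal cells and at 776, 884 and 1055 CPM in 76 pericentral cells, and these ranges overlapped. The periportal to pericentral ratio of Itga1 was 0.933 (0.844 to 1.03) and that of Itgb1 was 0.804 (0.716 to 0.904). For Itgb1 the ratio was below 1 in each library, at 0.665, 0.863 and 0.841. Itga9, an alpha subunit outside the 10 that pairs with beta 1, had 475 CPM in periportal cells and 226 CPM in pericentral cells, a ratio of 2.10 (1.72 to 2.59). Itgb3, the beta partner of alpha V, had a ratio of 2.92 (1.87 to 4.83), at 1.59, 2.45 and 4.03 in the libraries. Itga6, another alpha partner of beta 1, had a ratio of 1.08 (0.760 to 1.59), at 0.854, 2.89 and 0.884 in the libraries. The pericentral gate held 13, 9 and 54 cells per library. The 4 haemoglobin genes of the red cell list summed to 2765 CPM in the endothelial class, nearly all in suffix 3 (4740.0 CPM); without the 5 cells that held 5 or more of these UMIs, Itga1 stood at 920 CPM and Itgb1 at 639 CPM.

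The beta 2 family followed next. Itgb2, the common chain, had 971, 775 and 582 CPM in nonclassical monocytes and 768 CPM pooled, 1.85 times the 416 CPM of NK cells (1.57 to 2.18). Taken in order, NK cells, neutrophils (337 CPM), ILC1 (325 CPM) and T cells (321 CPM) did not differ each from the next beyond counting error. Within this order, pooled NK cells (interval 364 to 473 CPM) still lay above ILC1 (302 to 350 CPM). NK cells had 619, 363 and 385 CPM in the libraries and ILC1 had 388, 325 and 284 CPM. NK cells were higher in each library, but the ranges overlapped. Kupffer cells had 161, 170 and 165 CPM of Itgb2, against 5.22, 6.02 and 4.36 CPM in sinusoidal endothelial cells. The Kupffer to endothelial ratio was 34.0 (22.1 to 54.5), the 3 libraries gave 30.9, 28.2 and 37.8, and it was 93.5 where marker dominance of 10 times was asked of each cell.

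Itgal, the alpha chain of LFA-1, was the most abundant of the 10 genes in nonclassical monocytes, Kupffer cells, neutrophils and ILC1. Nonclassical monocytes had 1506, 1236 and 1256 CPM, against 844, 649 and 800 CPM in Kupffer cells. No library overlapped, and the ratio was 1.70 (1.53 to 1.90), a pair of classes added after the values had been seen because the classical monocyte gate was too small. Neutrophils had 601 CPM, NK cells 499 CPM, ILC1 391 CPM and T cells 367 CPM. The dendritic classes were lower, at 179 CPM in pDC, 124 CPM in cDC1 and 116 CPM in cDC2. B cells had 22.4 CPM from 3 UMIs and endothelial cells 8.34 CPM.

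Kupffer cells had far more Itgal than Itgb2 UMIs. Their 630 Itgal UMIs stood against 135 Itgb2 UMIs, a ratio of 4.67 (3.87 to 5.66) with 5.23, 3.82 and 4.86 in the libraries. In the other leukocyte classes with a ratio the pooled value ran between 0.508 in cDC2 and 1.78 in neutrophils, and no library of those classes exceeded 3. With Itgal, Itgam and Itgax summed over Itgb2, Kupffer cells had 5.16 (6.03, 4.26 and 5.18 per library). Neutrophils then had 3.32 (2.55, 4.12 and 5), which overlapped the Kupffer libraries. The other leukocyte classes ran between 1.46 in T cells and 2.33 in nonclassical monocytes. A UMI of Itgal was present in 70.8% of Kupffer cells (median depth 3063 UMIs) and a UMI of Itgb2 in 34.7%, against 2.88% and 1.22% of endothelial cells at a median depth of 5737 UMIs. The 4 nonclassical monocyte check genes, which include the macrophage genes Csf1r and Lyz2, summed to 4987 CPM in the Kupffer class and to 10263 CPM in nonclassical monocytes, and the 4 classical monocyte check genes, which include the same genes, to 4911 CPM in the Kupffer class and 8637 CPM in nonclassical monocytes. The part of these transcripts in the Kupffer values was not tested beyond the subsets that follow. The 4 NK check genes summed to 186 CPM in the Kupffer class (20.7, 588 and 34.7 CPM per library), and the 181 Kupffer cells with no UMI of them had 735 CPM of Itgal and 163 CPM of Itgb2. The 81 Kupffer cells with no UMI of the nonclassical monocyte gate genes had 661 CPM of Itgal and 160 CPM of Itgb2. This Itgal level (interval 535 to 808 CPM) lay below the interval of all 202 Kupffer cells (712 to 833 CPM). A UMI of Itgal was found in 45.7% of the 81 cells and a UMI of Itgb2 in 17.3%, against 70.8% and 34.7% above. Barcodes with few UMIs can lack these gate genes by depth alone, so this subset cannot show that monocyte transcripts were absent. These subsets, and the cells left out for haemoglobin, were added after the values had been seen.

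**Figure D3:**
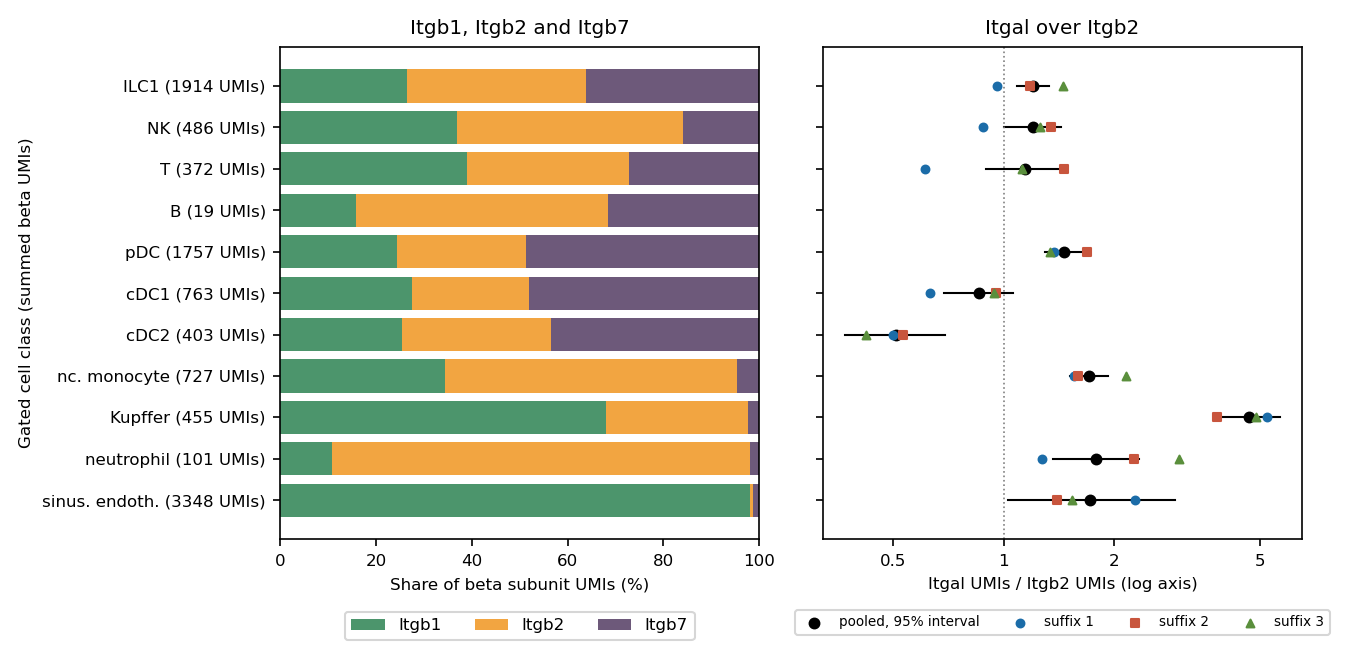
Left, share (%) of the UMIs of Itgb1, Itgb2 and Itgb7 held by each beta gene in each class, with the summed UMIs in brackets; right, Itgal UMIs over Itgb2 UMIs on a log axis, with the pooled ratio and its 95% counting interval in black and the 3 libraries as coloured marks (B cells left out for few UMIs). Itgb1 takes 98% of the beta UMIs in sinusoidal endothelial cells, and the Itgal to Itgb2 ratio of 4.67 in Kupffer cells lies above that of every other class shown.

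Itgam, the alpha chain of Mac-1, was confined in these libraries to myeloid cells, cDC2 and NK cells at 50 CPM or more. Neutrophils had 537, 452 and 407 CPM and nonclassical monocytes 317, 318 and 219 CPM. Every neutrophil value was above every monocyte value, with a ratio of 1.66 (1.31 to 2.11). cDC2 had 319, 180 and 170 CPM, against 0, 3.21 and 9.94 CPM in cDC1. The pooled ratio of cDC2 to cDC1 was 44.3 (19.7 to 123) and rested on 6 cDC1 UMIs; it was 95.3 without suffix 3, 24.4 with marker dominance of 10 times and 10.9 after thinning to 2000 UMIs per cell. ILC1 had 11.4 CPM and NK cells 139 CPM, Kupffer cells had 69.7 CPM, and T and B cells had no UMI.

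Itgax, which encodes the alpha X chain (CD11c) that is widely used to sort dendritic cells, was spread over more classes than Itgam although the genes are neighbours. cDC2 had 129, 230 and 188 CPM, against 80.7, 87.6 and 113 CPM in pDC, with no overlap. The ratio was 2.12 (1.70 to 2.63), and 1.61 without suffix 2. The cDC2 values of the single libraries rested on 15, 74 and 21 UMIs. ILC1 had 213, 189 and 215 CPM and NK cells 150, 197 and 209 CPM, levels that overlapped each other and those of cDC2. cDC1 had 138 CPM, T cells 102 CPM, neutrophils 38.3 CPM from 10 UMIs and Kupffer cells 11.0 CPM from 9 UMIs.

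The alpha 4 chain, a homing receptor subunit that pairs with beta 1 or beta 7, was found in all leukocyte classes. Itga4 had 760, 898 and 829 CPM in nonclassical monocytes, against 380, 250 and 244 CPM in neutrophils. The libraries did not overlap, and the ratio was 2.78 (2.19 to 3.57), also a pair added after the values had been seen. ILC1 had 78.6, 55.1 and 79.7 CPM, against 591, 677 and 627 CPM in NK cells, again without overlap. B cells (366 CPM), T cells (333 CPM), neutrophils (303 CPM) and pDC (286 CPM) did not differ each from the next beyond counting error. Kupffer cells had 86.9 CPM and endothelial cells 4.46 CPM.

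Itgb7 was highest in dendritic cells, ILC1 and T cells. pDC had 221, 218 and 228 CPM, against 12.4, 21.8 and 5.78 CPM in Kupffer cells. The ratio was 18.2 (9.83 to 38.0) on 10 Kupffer UMIs, and 10.8 after thinning to 2000 UMIs per cell. cDC2 (318 CPM), ILC1 (315 CPM), cDC1 (287 CPM), T cells (257 CPM) and pDC (222 CPM) did not differ each from the next beyond counting error. Classes further apart in this order did when pooled: pDC (interval 208 to 238 CPM) lay below cDC2 (273 to 369 CPM), ILC1 (292 to 339 CPM) and cDC1 (258 to 317 CPM). Only ILC1 (326, 318 and 304 CPM) lay above pDC in every library. In suffix 3 the order was reversed for cDC2 (161 CPM from 18 UMIs) and cDC1 (221 CPM), against 228 CPM in pDC. Itga4 UMIs were 0.222 times Itgb7 UMIs in ILC1 (0.185 to 0.265), 4.69 times in NK cells (3.66 to 6.08) and 14.3 times in nonclassical monocytes (10.1 to 20.8). The ILC1 ratio was below 1 in all 3 libraries and the NK and monocyte ratios were above 4 in all 3.

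Itgae was found in cDC1 and hardly elsewhere. cDC1 had 129, 65.9 and 171 CPM (143 UMIs), against no UMI in any library in cDC2. With 3 counts over the whole cDC2 class taken as the limit of a count of 0 (5.46 CPM), the ratio of cDC1 to cDC2 was 20.5. Its counting interval with those 3 counts was 6.86 to 100. The ratio was 11.8 without suffix 2, 12.3 without suffix 3 and 3.63 after thinning, which left fewer UMIs. The only other UMIs in named classes were 3 in T cells and 2 in ILC1, and cells of no class held 21. At least 1 UMI was found in 42.5% of cDC1 at a median depth of 17256 UMIs. Its partner Itgb7 was present in both dendritic classes, in 81.2% of cDC1 and 95.1% of cDC2.

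**Figure D4:**
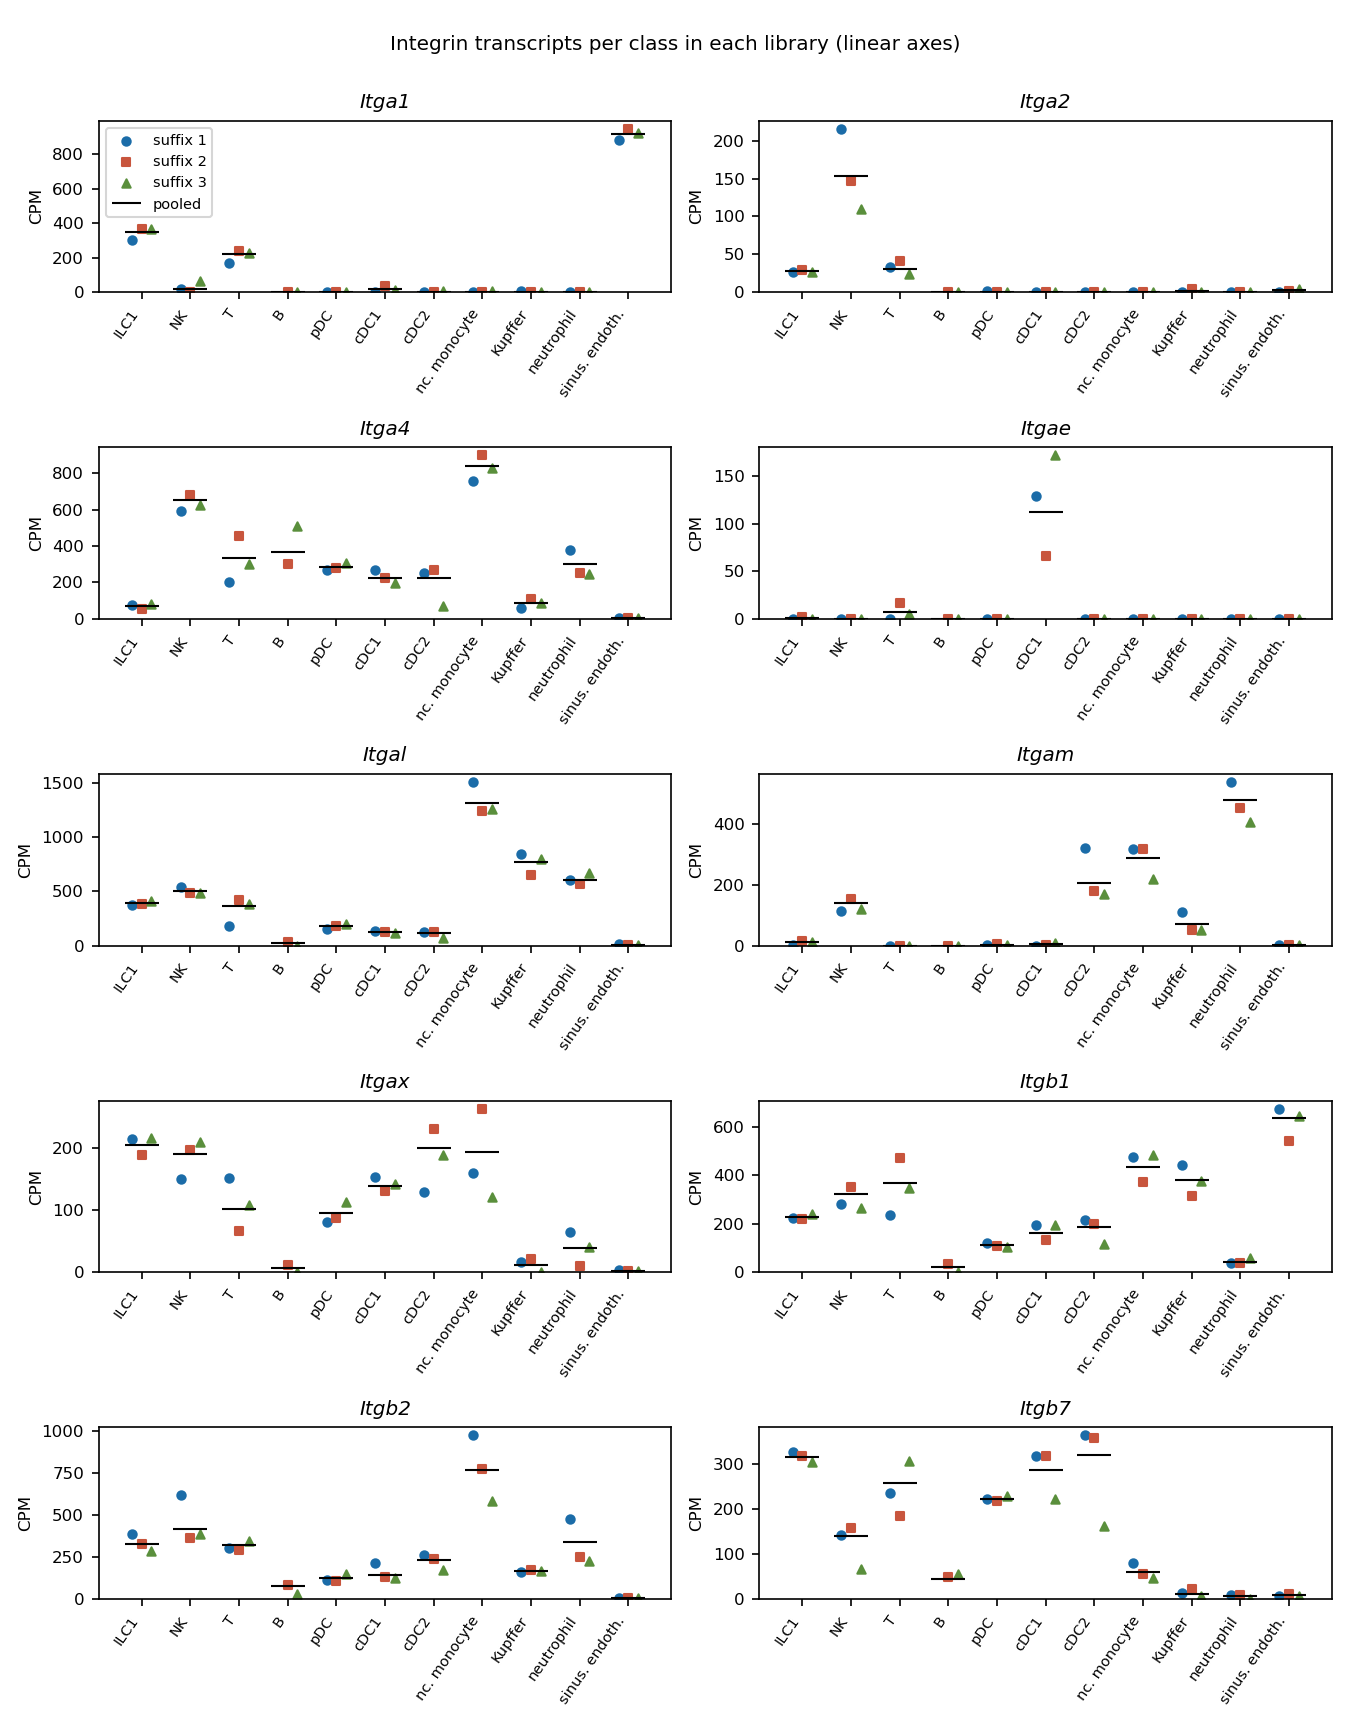
CPM of each integrin gene (1 panel each, linear axes) by cell class, with 1 mark per library (barcode suffix 1, 2 or 3) and a line at the pooled value; B cells of suffix 1 are not shown because there were 3. The Itga2 marks of NK cells (110 to 216 CPM) all lie above those of ILC1, and the Itgae marks of cDC1 range between 65.9 and 171 CPM.

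The share of each beta gene differed between the classes. In sinusoidal endothelial cells 98% of beta UMIs were Itgb1 (97.5 to 98.5), and in Kupffer cells 68.1% were. In neutrophils 87.1% were Itgb2 and in nonclassical monocytes 60.9%. Itgb7 took 48.8% in pDC, 48.1% in cDC1 and 43.4% in cDC2. ILC1 and NK cells used all 3, with Itgb7 at 36.2% of beta UMIs in ILC1 (34.1 to 38.4) and at 15.8% in NK cells (12.7 to 19.4). Summed over the 3 beta genes, ILC1 had 869 CPM and NK cells 879 CPM.

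Detection of both subunits in a cell was compared after thinning each cell to 2000 UMIs, which left out 143 endothelial and 72 Kupffer cells and at most 15 cells of any other class. Both chains of LFA-1, Itgal and Itgb2, were found in 72.2% of nonclassical monocytes (61.8 to 81.1; 86.7% unthinned), against 34.9% of neutrophils, 30.4% of NK cells, 25.2% of ILC1, 20.0% of Kupffer cells and 0.264% of endothelial cells. Itga1 with Itgb1 was found in 52.6% of endothelial cells (74.7% unthinned), 16.7% of ILC1 (50% unthinned) and 4.35% of NK cells. Itga2 with Itgb1 was found in 13% of NK cells (54.2% unthinned), against 1.82% of ILC1. Itga4 with Itgb1 was found in 45.6% of nonclassical monocytes and 37.7% of NK cells, and in 5.47% of ILC1.

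The remaining pairs were read the same way. Itga4 with Itgb7 was found in 19.5% of cDC2 (8.82 to 34.9; 78.0% unthinned), 14.5% of NK cells, 14% of T cells, 13.3% of pDC and 3.34% of ILC1. ILC1 thus had few cells with both chains although 50.8% of them had Itgb7 at this depth. Itgae with Itgb7 was found in 8.86% of cDC1 (3.64 to 17.4; 35% unthinned) and in no thinned cell of any other class. Itgam with Itgb2 was found in 36.7% of nonclassical monocytes (70.4% unthinned), 28.6% of neutrophils, 19.5% of cDC2 and 18.8% of NK cells. Itgax with Itgb2 was found in 25.6% of nonclassical monocytes (60.2% unthinned) and 17.1% of cDC2 (70.7% unthinned). Unthinned shares are higher in deep classes, and the median depth ran between 3063 UMIs in Kupffer cells and 17256 UMIs in cDC1.

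**Figure D5:**
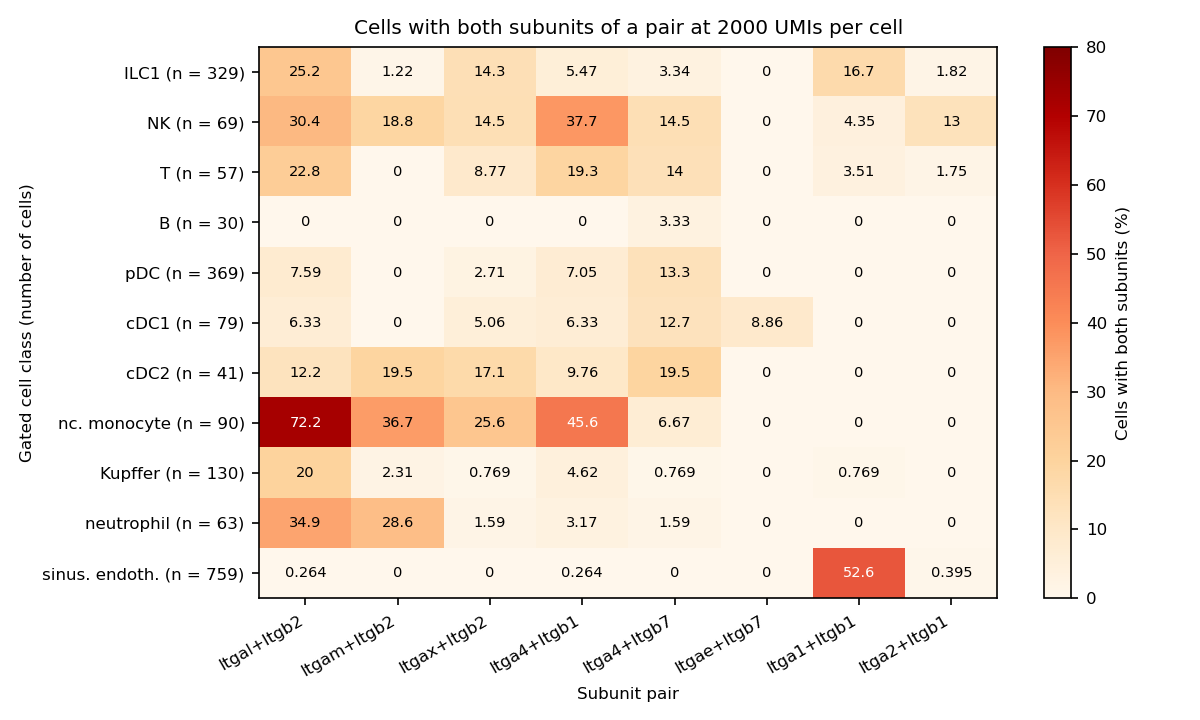
Share of cells (%) with at least 1 UMI of both subunits of a pair (columns) in each class (rows, with the number of cells of 2000 UMIs or more), after each cell was thinned to 2000 UMIs. Itgal with Itgb2 reaches 72.2% in nonclassical monocytes, Itga1 with Itgb1 52.6% in sinusoidal endothelial cells, and Itgae with Itgb7 is above 0 in cDC1 alone.

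The members were then set against all genes, taking genes at 50 CPM or more in either class and a 2-fold difference as the limit, with no test. Between ILC1 and NK cells, 9 members could be compared. Itga1 and Itgb7 were at least 2-fold higher in ILC1, where 7.26% of all 3347 genes were, and Itga2, Itga4 and Itgam were at least 2-fold lower in ILC1, where 4.69% of all genes were. Itga1 reached 50 CPM only in ILC1, and Itga2 and Itgam only in NK cells. The filter thus admitted these genes through the class where they were high. The shares of 2 of 9 and 3 of 9 depend in part on that, in a list chosen with these classes known, and are descriptions. Between cDC1 and cDC2, Itgae was higher and Itgam lower of 8 members, against backgrounds of 6.29% higher and 11.2% lower. Each of these genes reached 50 CPM only in the class where it was higher. Between cDC2 and pDC, Itgam and Itgax were higher of 7, where 12.1% of genes were higher and 20% lower. Here Itgam reached 50 CPM only in cDC2.

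Differences between more distant classes had larger backgrounds. Between sinusoidal endothelial and Kupffer cells, Itga1 was higher and Itga4, Itgal, Itgam and Itgb2 lower of 6 members, where 34.1% of genes were higher and 18.2% lower. Between pDC and Kupffer cells, Itga4, Itgax and Itgb7 were higher and Itgal, Itgam and Itgb1 lower of 7, where 25.5% of genes were higher and 22.9% lower. Nonclassical monocytes exceeded Kupffer cells for 5 of 7 members (21.4% of genes higher, 18% lower) and neutrophils for 6 of 7, all but Itgam (37.7% higher, 20.5% lower). The members' median log2 ratio, beside that of all genes compared, was 2.22 and 0.16 for nonclassical monocytes over Kupffer cells, 1.47 and 0.44 for nonclassical monocytes over neutrophils, and 0.74 and -0.16 for cDC2 over pDC. It was -4.69 and 0.36 for endothelial over Kupffer cells, -0.43 and 0.15 for pDC over Kupffer cells, -0.35 and -0.0024 for ILC1 over NK cells, and -0.16 and -0.10 for cDC1 over cDC2. In the endothelial to Kupffer comparison Itga4, Itgal, Itgam and Itgb2 reached 50 CPM only in Kupffer cells, and Itga1 only in endothelial cells. The filter admits a gene through either class, so these counts and medians depend in part on it and on the choice of members.

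The other 17 integrin subunit genes completed the picture. They summed to 738 CPM in sinusoidal endothelial cells and 685 CPM in Kupffer cells, and to 227 CPM or less in every other class. Itga9 led with 413 CPM in endothelial cells (427, 415 and 407 CPM) and 302 CPM in Kupffer cells (314, 261 and 321 CPM). Itgb5, a beta partner of alpha V, had 197 CPM in Kupffer cells, and Itgav had 144 CPM in nonclassical monocytes, 143 CPM in Kupffer cells and 100.4 CPM in ILC1. Itgb3 had 104 CPM in endothelial cells. Of the 6 of these genes that could be compared between endothelial and Kupffer cells, 2 were at least 2-fold higher and 2 lower, beside 34.1% and 18.2% of all genes.

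Genes that switch integrins on and tie them to actin were measured as a list of 17. The list summed to 3671 CPM in nonclassical monocytes, above the 2536 CPM of neutrophils, 2075 CPM of Kupffer cells and 1934 CPM of endothelial cells. Rap1b and Rap1a, small GTPases that recruit talin, peaked in nonclassical monocytes at 968 and 596 CPM, as did talin itself (Tln1, 678 CPM) and the Rap1 effector RIAM (Apbb1ip, 557 CPM). Between nonclassical monocytes and neutrophils, 5 of the 9 genes compared were at least 2-fold higher and 1 lower, beside the 37.7% and 20.5% of all genes given above. Between ILC1 and NK cells none of 10 was higher and 1 was lower, beside 7.26% and 4.69% of all genes.

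Another 2 pairs were picked from this list after their values had been seen. The kindlin gene Fermt2 had 260 CPM in endothelial cells (247, 241 and 272 CPM) and at most 3.67 CPM in every leukocyte class, whereas Fermt3, the kindlin of blood cells, had 218 CPM in Kupffer cells and 172 CPM in nonclassical monocytes. Focal adhesion kinase (Ptk2) had 156 CPM in endothelial cells, and its relative Ptk2b had 251 CPM in nonclassical monocytes, 202 CPM in B cells and 183 CPM in ILC1.

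The list of 8 genes that inhibit or recycle integrins summed to 1011 CPM in endothelial cells and to between 345 and 576 CPM in the leukocyte classes. Dab2, an endocytic adaptor for the beta 1 tail, had 484 CPM in endothelial cells and 218 CPM in Kupffer cells. Rab21, an endosomal GTPase that binds integrin alpha tails, had 176 CPM in pDC, and Rab11a, of the recycling endosome, had 173 CPM in endothelial cells. Acap1, an Arf6 regulator of beta 1 recycling, had 172 CPM in ILC1, 163 CPM in T cells and 157 CPM in NK cells. Between endothelial and Kupffer cells 2 of 5 genes compared were at least 2-fold higher and none lower, beside 34.1% and 18.2% of all genes.

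Ligand transcripts were measured as a list of 19 genes, by class and not together with integrins in single cells. Vcam1, bound by alpha 4 beta 1, had 1799, 2331 and 2161 CPM in Kupffer cells and 454 CPM in sinusoidal endothelial cells. Icam1, bound by LFA-1 and Mac-1, had 586 CPM in neutrophils (917, 192 and 692 CPM), 313 CPM in NK cells, 304 CPM in endothelial cells and 276 CPM in Kupffer cells. Its level in suffix 2 was the lowest of the 3 libraries in neutrophils, endothelial cells and Kupffer cells. Col4a1, a basement membrane collagen chain that alpha 1 beta 1 binds, had 580 CPM in endothelial cells, the class with the highest Itga1. Thbs1, the matrix protein thrombospondin, had 640 CPM in neutrophils. Of 6 ligand genes compared, 3 were at least 2-fold higher in endothelial than in Kupffer cells and 2 were lower, beside 34.1% and 18.2% of all genes.

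Genes whose level over the 9 classes of 50 or more cells was most like that of a member were listed by Pearson correlation of log2(CPM + 10) among 6125 genes. The 9 points are classes of the same libraries, so the r values are descriptions. Itgb2 was most like Bin2 (r = 0.995), Dock11 and Rassf5, and Itgal was most like Apbb1ip (r = 0.964), Ptk2b and Ube2d2a. Itga2 was most like Crtam (r = 0.994), the NK gate marker Klra9 and Klra7. Itgae was most like Gcsam (r = 0.998), Snx22 and A530099J19Rik, and Itga1 was most like Pdk1 (r = 0.959), Fnbp4 and Mprip. Itgb1 came closest to Spata6 (r = 0.961), Ywhab and Uhrf2, and Itga4 to Sf3b6 (r = 0.927), Elf4 and Emp3. Itgam came closest to Gng5 (r = 0.934), Gcnt1 and Rap1b, Itgax to Taf10 (r = 0.972), Pfdn5 and Mrps24, and Itgb7 to Eif3m (r = 0.975), Grcc10 and Sept6. Among the members themselves the closest pairs were Itgal with Itgb2 (r = 0.929), Itga4 with Itgb2 (r = 0.853) and Itgax with Itgb7 (r = 0.810), whereas Itga1 with Itgb1 had r = 0.518.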

How the data were processed

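Single-cell libraries were made with the 10x Genomics 3′ kit (v3), per the labels' protocols. The authors deposited 1 merged matrix of raw UMI counts, made with Cell Ranger 3.1.0 per the file headers; the submitters' processing notes also name STAR, Seurat, edgeR and mm10, without versions or roles. From the counts, CPM per class, ratios with exact conditional intervals, Poisson intervals for levels and Clopper-Pearson intervals for shares were computed (95%, counting error only) in Python 3.11.15 with scipy 1.17.1. TMM factors from edgeR 4.0.16 served as an alternative scaling. A count of 0 was given a limit of 3 counts. No doublet caller was run. The dominance rule leaves out barcodes with similar marker sums for several classes. It keeps mixed barcodes in which 1 list is at least 4 times every other, and their number was not tested. Genes named were the 10 members, the 3 most alike genes of each and the 4 highest of each further list; Fermt2, Fermt3, Ptk2 and Itga6 were added after their values were seen. Members, lists, gates and ratios were chosen with earlier results of these data known. The 2 planned ratios with classical monocytes were not given. The ratio step was tested on simulated counts. Promoters came from RefSeq, and positions from GENCODE on GRCm38. Libraries are not replicates of a treatment. 0 columns belonged to another series.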

Additional observations from a re-analysis of the deposited data

Results flagged for a closer look

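Integrin UMIs were also present in the 1408 barcodes that the cell filter removed, which enter no comparison. As CPM of the non-mitochondrial UMIs they stood at 250 for Itga1, 8.01 for Itga2, 384 for Itga4, 5.01 for Itgae, 234 for Itgal, 23.0 for Itgam, 98.1 for Itgax, 154 for Itgb1, 68.6 for Itgb2 and 72.1 for Itgb7. Each lies above the 1.5 CPM that a count of 0 allows there. The marker gates placed 306 of these barcodes with pDC, 241 with sinusoidal endothelial cells and 67 with Kupffer cells. Of the larger counts, 256 of the 499 removed Itga1 UMIs were in barcodes with endothelial markers and 463 of the 767 Itga4 UMIs in barcodes with pDC markers. The 467 removed Itgal UMIs included 161 in barcodes with pDC markers and 114 in barcodes with Kupffer markers.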

How the results depend on the processing

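Of 138 recomputed ratios, 129 moved by less than their counting interval, 9 moved by more and none turned round. Leaving out a library gave 8.43 to 52.8 for Itga1 (ILC1 over NK cells) and 1.61 to 2.40 for Itgax (cDC2 over pDC). Thinning to 2000 UMIs gave 3.63 for Itgae (cDC1 over cDC2), 10.9 for Itgam (cDC2 over cDC1) and 2.04 for Itga4 (nonclassical monocytes over neutrophils), with fewer UMIs by construction. TMM scaling, whose factors ran between 0.768 in neutrophils and 1.18 in T cells, gave 2.17 for that Itga4 ratio and 1.40 for Itgb1 (endothelial over Kupffer cells). Members past 2-fold were not recounted under TMM. The count of nonclassical monocytes (factor 0.983) over neutrophils depends on the scaling. A marker dominance of 10 times gave 93.5 for Itgb2 (Kupffer over endothelial cells), and the cause was not tested.

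Counted in both directions together, the share of genes past 2-fold was 12.0% (ILC1 over NK cells), 17.5% (cDC1 over cDC2) and 32.1% (cDC2 over pDC). Without a CPM minimum these shares were 33.2%, 33.6% and 48.3%. Past 3-fold the share was 5.05%, 8.98% and 19.2% for these 3 pairs. It was 30.9% for pDC over Kupffer cells (48.5% past 2-fold) and 22.4% for nonclassical monocytes over Kupffer cells (39.3% past 2-fold). Without thinning, pairs were found in 86.7% (Itgal and Itgb2), 70.4% (Itgam and Itgb2), 60.2% (Itgax and Itgb2) and 77.6% (Itga4 and Itgb1) of nonclassical monocytes, 78.0% of cDC2 (Itga4 and Itgb7), 35% of cDC1 (Itgae and Itgb7), 74.7% of endothelial cells (Itga1 and Itgb1) and 54.2% of NK cells (Itga2 and Itgb1). With pseudocounts of 1 or 50 CPM, 1 of 3 alike genes recurred in the lowest case, for Itga2, Itgam and Itgb7.

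No paired analysis was possible because no suffix is tied to a treatment and the ratios come from no test; the classes compared share the libraries, and the ratios within each library are given with the pooled ones. Ratios on 10 or fewer UMIs in the lower class, those of Itga1, Itgae, Itgam and Itgb7, are limited by depth, as is every value of B cells.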
